A study of Mus musculus with 42 samples.

Results

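The 9 genes described here move glucose, sodium and bicarbonate across the kidney tubule: the glucose carriers Slc5a1, Slc5a2, Slc2a1 and Slc2a2, the acid-base genes Slc9a3, Slc4a4, Car2 and Car4, and the sodium pump subunit Atp1b1. They were taken by gene symbol, by a rule with no threshold on their values, from the 40701 gene symbols of the deposited tables. All 9 were found, and all 9 passed the filter on low counts. RNA came from the renal cortex of 12-week-old male and female mice. In the libraries labelled proximal tubule (PT), RNA was pulled down on beads that carry antibodies against GFP. The method, translating ribosome affinity purification (TRAP), recovers ribosomes tagged in a chosen cell type with the RNA on them. The remaining libraries are labelled total kidney (Total). Each fraction was sequenced from contralateral kidneys, which served as controls, and from kidneys at day 5 and day 10 of ureteral obstruction (UUO), with 4 male and 3 female libraries per state and fraction, 42 in all. The labels do not name the strain, the tagged transgene or the promoter that drove it. They do not give the day on which contralateral kidneys were taken, nor say whether Total was the unbound part, and no kidney of an unoperated animal entered these comparisons. Nothing states that the libraries of a group came from separate animals, so p-values measure the spread between these libraries, which may be technical.

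In the proximal tubule, filtered glucose enters the cell together with sodium at the apical membrane, through SGLT2 (Slc5a2) in the early segments and SGLT1 (Slc5a1) in the late segment. It leaves through facilitative carriers of the basolateral membrane, GLUT2 (Slc2a2) and GLUT1 (Slc2a1). Bicarbonate is recovered by a relay in which the sodium-proton exchanger NHE3 (Slc9a3) secretes protons, the membrane-bound carbonic anhydrase Car4 and the cytosolic enzyme Car2 interconvert carbon dioxide and bicarbonate, and the cotransporter NBCe1 (Slc4a4) returns sodium and bicarbonate to the blood side. The sodium gradient that drives both routes is kept by the sodium-potassium ATPase, of which Atp1b1 is a beta subunit. Outside the proximal tubule, Car2 is also known from intercalated cells and erythrocytes, and Atp1b1 from the loop of Henle and distal tubule.

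Libraries held 9.31 to 43.6 M counts, with a median of 18.5 M. A summed list of 10 proximal tubule markers had a median of 3312 RPKM in PT and 2261 RPKM in Total of contralateral kidneys, and a list of 7 intercalated cell markers had 7.33 and 227 RPKM, so the PT label held in these 2 lists. The 5 late-segment markers went against it, with median sums of 140 RPKM in PT and 218 in Total, and 4 of them (Slc22a7, Slc22a13, Cyp7b1 and Slc22a19) were called lower in PT than in Total of contralateral kidneys, by log2 values of -2.30 to -4.06. Their sums ran from 6.18 to 242 RPKM in PT and from 62.1 to 299 in Total, and the medians mix the sexes. In contralateral PT, Slc7a13 was called lower in females (-7.12) and Slc22a13 and Slc22a19 higher (3.47 and 3.16). Slc22a7 and Cyp7b1 were not called there. In PT all 10 proximal tubule markers were called lower at both days, to median sums of 799 and 787 RPKM. In bulk RNA, fewer cells of a type and less RNA per cell cannot be told apart. 5 of the 21 PT libraries had a deposited level of Lars2, a mitochondrial tRNA synthetase gene, of at least 5110 RPKM, and the other 16 had at most 3370 RPKM. 4 of those 5 were day 10 libraries, and 4 Total libraries, all of day 10, were also above 5000 RPKM. Of these Total libraries, 3 were the 3 female ones, so sex and high Lars2 largely coincide in Total at day 10. Libraries of high Lars2 were left out in PT only. The results for PT are therefore given with and without the 5 libraries where the call or direction changed. Among the female day 10 PT libraries, Lars2 was 675, 5850 and 11230 RPKM, so a single one was kept in those fits. With the sexes weighted equally, that library counted for as much as the male ones kept. Principal cell markers (6 genes) had median sums of 41.2, 6.48 and 6.96 RPKM in PT of contralateral, day 5 and day 10 kidneys and 119, 46.8 and 35.3 in Total, and 6 endothelial markers 2.66, 2.77 and 3.89 RPKM in PT and 37.4, 33.4 and 33.4 in Total.

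Levels below are reads per kilobase and per M reads (RPKM), computed from the counts on a library size scaled by edgeR's TMM factors over all 42 libraries, with the gene length implied by the deposited tables. They are given as the lowest, median and highest of the 7 libraries of a state. Changes are log2 fold changes ± standard error from edgeR's quasi-likelihood test with 7 libraries a side and both sexes weighted equally. P-values were adjusted by the Benjamini-Hochberg method over all genes tested. A gene is said to have risen or fallen, or to be called, where the adjusted p was under 0.05 and the change at least 2-fold. Scaling on library size alone moved the median change of all genes up by 0.361 to 0.471 in the 4 comparisons with contralateral kidneys, so each change is relative to the TMM scale.

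Among the 9 genes, 4 fell in PT at day 5 (Slc5a2, Slc2a2, Slc9a3 and Slc4a4) and 6 fell at day 10 (the same 4 with Car4 and Atp1b1), and none rose. The background was high: of 14932 genes tested in PT, 30.6% were called at day 5 and 31.7% at day 10, with 12.4% and 12% called lower. In Total, 6 of the 9 fell at day 5 (Slc5a2, Slc2a2, Slc9a3, Slc4a4, Car4 and Atp1b1) and 7 at day 10, when Car2 joined them. Of 16782 genes tested in Total, 32.5% were called at day 5 and 34.6% at day 10, with 13.3% and 13.8% called lower. Slc5a1 and Slc2a1 were called in none of these 4 comparisons. No member was called between day 10 and day 5 by edgeR in either fraction, where 0.442% of genes in PT and 0.393% in Total were called, and DESeq2 and limma-voom called none either. At an unadjusted p under 0.05 there were 0 members in PT and 3 in Total (Slc2a1, Slc2a2 and Slc4a4, at -0.49, -0.45 and -0.41).

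**Figure D1:**
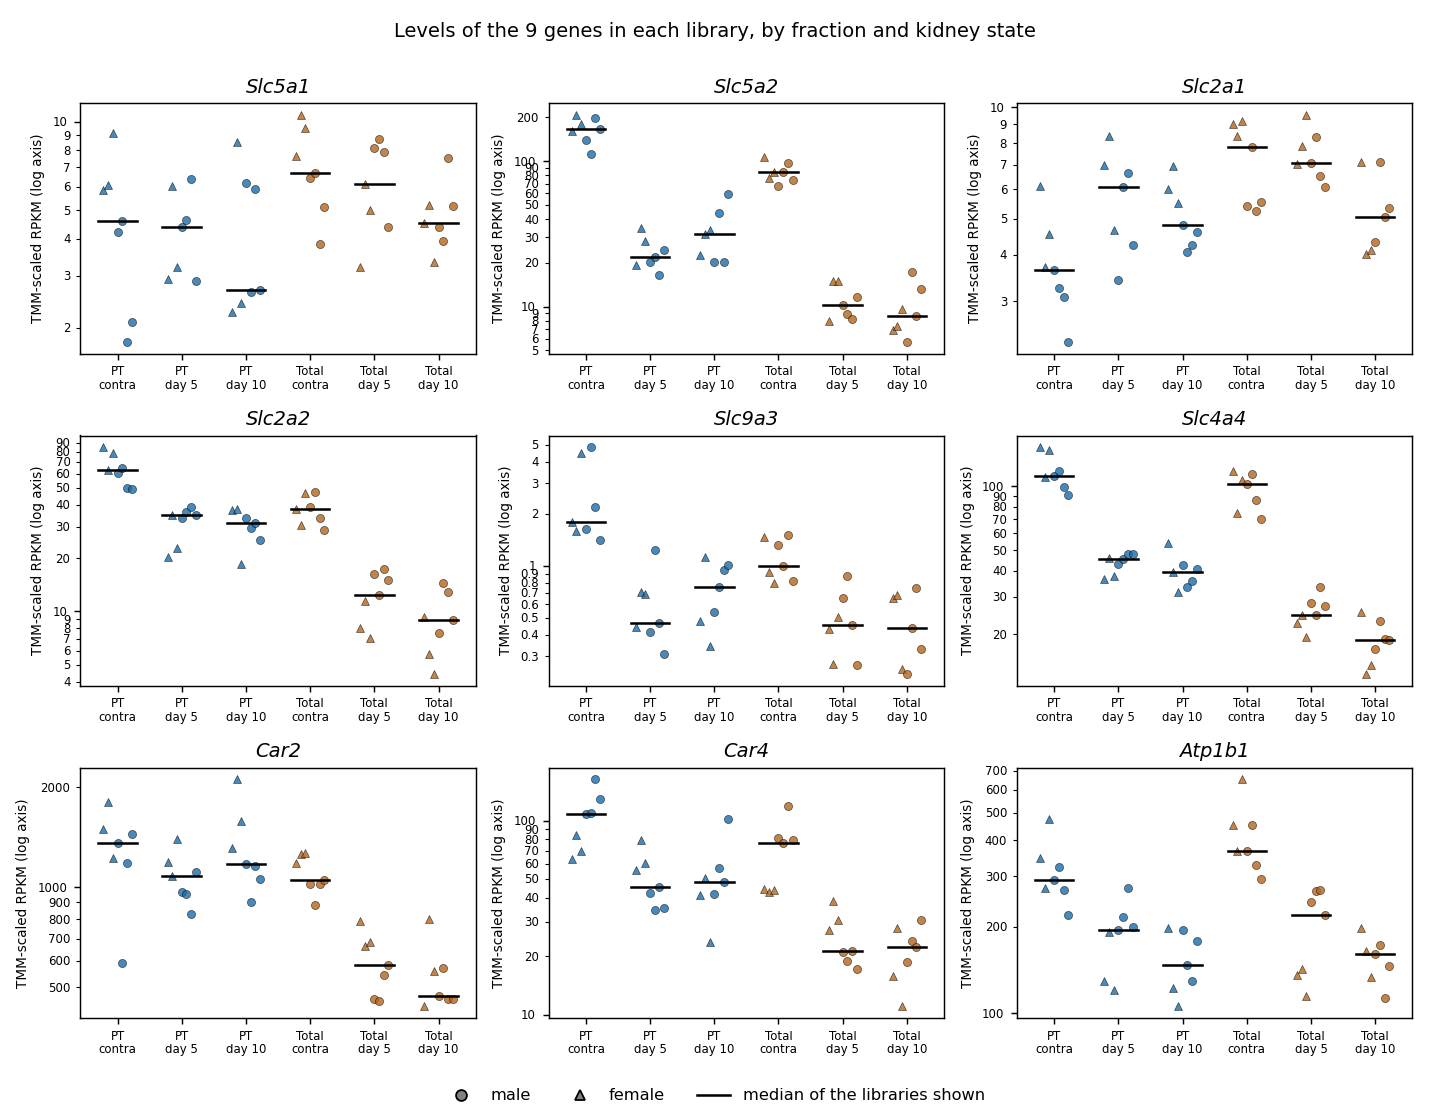
Level of each of the 9 genes in each library, as TMM-scaled RPKM on a log axis, by fraction (PT blue, Total brown) and kidney state; circles are male libraries, triangles female libraries and lines the medians of 7. The 7 Slc5a2 levels of each obstructed state lie below all 7 contralateral levels in both fractions, while those of Slc5a1 overlap throughout.

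Slc5a2, the high-capacity glucose carrier of the early proximal tubule, had the largest change of the 9 in all 4 comparisons with contralateral kidneys. Its PT level was 112, 165 and 208 RPKM (lowest, median, highest) in contralateral kidneys, 16.5, 22.0 and 34.8 at day 5, and 20.1, 31.5 and 59.1 at day 10. Every obstructed library was below every contralateral library. The change in PT was -2.82 ± 0.25 at day 5 (edgeR adjusted p = 6.75e-09) and -2.41 ± 0.24 at day 10 (adjusted p = 4.28e-08), which is 7.07-fold and 5.3-fold. In Total its level went from 67.3, 83.6 and 107 RPKM to 7.93, 10.3 and 15.1 at day 5 and to 5.69, 8.67 and 17.2 at day 10, again without overlap. The changes in Total were -2.96 ± 0.21 and -3.16 ± 0.22 (edgeR adjusted p = 5.75e-11 and 1.6e-11). The 4 male PT libraries of day 10 were the most spread, at 20.1, 20.3, 44.2 and 59.1 RPKM, and the 2 higher ones were both among the libraries of high Lars2. In the annotation GENCODE M21, 597 of its exon bases (20.6%) lie within exons of BC017158 on the opposite strand. The strand setting of the counting is not given in the sources used here, so reads of the pair cannot be told apart there.

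A list of 5 early-segment markers moved with Slc5a2: their summed level in PT had medians of 3481 RPKM in contralateral kidneys, 266 at day 5 and 241 at day 10, with all 5 called lower at both days. Their part in the result was not tested.

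Slc5a1, the high-affinity carrier of the late segment, is expressed at a much lower level. In PT its level was 1.78, 4.58 and 9.15 RPKM in contralateral kidneys, 2.87, 4.41 and 6.41 at day 5, and 2.27, 2.69 and 8.54 at day 10. The 3 states overlapped almost completely, and the change was -0.14 ± 0.32 at day 5 and -0.15 ± 0.31 at day 10 (edgeR adjusted p = 0.727 and 0.703). The contralateral libraries were themselves spread by sex, with 1.78, 2.09, 4.21 and 4.58 RPKM in males and 5.86, 6.08 and 9.15 in females. The difference between the sexes in PT of contralateral kidneys was 1.14 ± 0.44, which did not pass the test (edgeR adjusted p = 0.185). Over the 3 states the PT means were 3.17, 4.58 and 4.35 RPKM in males and 7.03, 4.05 and 4.41 in females. The small PT changes thus average sexes whose means moved in opposite directions, a difference that the interaction test below did not bear out. The female mean at day 10 averages libraries of 2.27, 2.42 and 8.54 RPKM. In Total its level was 3.83, 6.69 and 10.5 RPKM, then 3.22, 6.13 and 8.73, then 3.33, 4.52 and 7.55, with changes of -0.30 ± 0.19 and -0.58 ± 0.19 (edgeR adjusted p = 0.179 and 0.0127, both short of 2-fold). Total means over the states were 5.52, 7.27 and 5.26 RPKM in males and 9.23, 4.79 and 4.35 in females. Its interaction of sex with each day in Total had an unadjusted edgeR p under 0.05 and was not called by edgeR. At day 10 all 3 female Total libraries were of high Lars2. In PT neither interaction reached an unadjusted edgeR p under 0.05. The direction of its small PT changes was not stable. On library size alone, without TMM, the PT values were 0.32 at day 5 and 0.32 at day 10. Without the 5 PT libraries of high Lars2 the day 10 value was 0.51, in a fit that kept a single female day 10 library. Of the 9 genes it had the strongest correlation with Lars2, with Pearson's r of -0.72 over the 21 PT libraries and -0.555 over the 21 Total libraries, and the other 8 lay between -0.368 and 0.214. These correlations pool the 3 states and share the libraries' depth, so they are a description only. The 5 late-segment markers, most of them lower in PT than in Total, had median sums in PT of 140, 18.5 and 29.2 RPKM in contralateral, day 5 and day 10 kidneys. Those sums ranged widely, from 6.18 to 242, 3.05 to 51.9 and 1.89 to 119 RPKM, and some of these markers differ between the sexes. Of the 5, 3 were called lower at day 5, and at day 10 2 were called lower and Cyp7b1 higher (1.13, edgeR adjusted p = 0.0227).

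Slc2a2, the facilitative carrier through which glucose leaves early proximal tubule cells, fell in both fractions. The PT libraries held 49.3, 63.1 and 85.1 RPKM in contralateral kidneys, 20.2, 35.2 and 39.1 at day 5, and 18.6, 31.6 and 38.1 at day 10, with no overlap with the contralateral libraries. The PT changes were -1.09 ± 0.16 and -1.12 ± 0.16 (edgeR adjusted p = 6.03e-06 and 4.05e-06), just past 2-fold. In Total the level went from 28.9, 37.7 and 47.1 RPKM to 7.11, 12.4 and 17.4 and then to 4.4, 8.95 and 14.4, also without overlap. Those changes were larger, -1.72 ± 0.18 and -2.17 ± 0.18 (edgeR adjusted p = 2.33e-08 and 6.06e-10). On library size alone the PT changes were -0.63 and -0.69 (edgeR adjusted p = 0.00683 and 0.00369) and no longer 2-fold. Without the 5 libraries of high Lars2, in a fit that kept a single female day 10 library, the day 10 value was -0.98. Without replicate 3 of the female day 10 libraries alone it was -0.99. Both were short of 2-fold.

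Slc2a1, the widely expressed facilitative carrier, was somewhat higher in PT of obstructed kidneys, short of 2-fold. PT levels of this gene were 2.33, 3.64 and 6.12 RPKM in contralateral kidneys, 3.43, 6.11 and 8.33 at day 5, and 4.06, 4.82 and 6.92 at day 10. The states overlapped, and the changes were 0.59 ± 0.17 and 0.41 ± 0.17 (edgeR adjusted p = 0.00552 and 0.0458, 1.51-fold and 1.33-fold). On library size alone the day 5 value was 1.08 (edgeR adjusted p = 1.90e-04), past 2-fold. In Total the level was 5.25, 7.80 and 9.17 RPKM in contralateral kidneys, 6.11, 7.09 and 9.53 at day 5 and 4.02, 5.05 and 7.12 at day 10. The Total changes were 0.02 ± 0.15 and -0.47 ± 0.15 (edgeR adjusted p = 0.921 and 0.0103). A noncoding gene annotated antisense to it, Gm12868, shares 105 of its exon bases (2.99%).

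Promoter windows of RefSeq (build GRCm38.p6, 250 bases before to 50 after the annotated start) were found for 7 of the 9 genes, with 2 windows for Slc4a4 and none for Slc5a2 and Car2. 3 glucose carriers are shown because carriers that share a membrane differed in their change, and Slc9a3 because it holds the same palindrome as Slc5a1. The windows were searched on both strands for ACGTG, the core bound by hypoxia-inducible factors, GTTAAT, one arm of the site of the proximal tubule factor HNF1, CAAAGTCCA, a site of HNF4, and TGANTCA for AP-1. The N in TGANTCA stands for any base, a loose form of the AP-1 site. ACGTG was in the windows of Slc5a1, Slc2a1, Slc9a3 and Car4, and 19.6% of all 32851 windows hold it. The other motifs were in none of the 8 windows of these genes, and 7.1%, 0.475% and 7.81% of all windows hold them. A match is a description of letters and not a bound site. The 250 bases before the start are printed 5′ to 3′ on the strand of the gene, which is + for all 4, with ACGTG or its reverse complement in capitals. In Slc5a1 and Slc9a3 both strands match, overlapping in 1 palindrome. The Slc5a1 bases are chr5:33103969-33104218, those of Slc2a1 chr4:119108495-119108744, those of Slc2a2 chr3:28697653-28697902 and those of Slc9a3 chr13:74121163-74121412.
Slc5a1: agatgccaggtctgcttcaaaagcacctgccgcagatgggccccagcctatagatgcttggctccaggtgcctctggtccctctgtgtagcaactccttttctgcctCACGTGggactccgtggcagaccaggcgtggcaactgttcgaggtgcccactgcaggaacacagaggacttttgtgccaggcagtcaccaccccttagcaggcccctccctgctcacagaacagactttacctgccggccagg
Slc2a1: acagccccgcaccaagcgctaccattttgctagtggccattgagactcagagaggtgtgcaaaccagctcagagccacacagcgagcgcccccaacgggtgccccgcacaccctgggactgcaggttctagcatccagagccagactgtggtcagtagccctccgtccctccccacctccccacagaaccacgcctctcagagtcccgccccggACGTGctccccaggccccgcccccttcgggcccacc
Slc2a2: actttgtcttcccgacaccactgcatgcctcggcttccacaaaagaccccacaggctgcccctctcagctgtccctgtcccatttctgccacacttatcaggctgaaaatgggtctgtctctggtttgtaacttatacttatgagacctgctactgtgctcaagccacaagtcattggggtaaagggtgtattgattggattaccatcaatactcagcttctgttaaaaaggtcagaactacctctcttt
Slc9a3: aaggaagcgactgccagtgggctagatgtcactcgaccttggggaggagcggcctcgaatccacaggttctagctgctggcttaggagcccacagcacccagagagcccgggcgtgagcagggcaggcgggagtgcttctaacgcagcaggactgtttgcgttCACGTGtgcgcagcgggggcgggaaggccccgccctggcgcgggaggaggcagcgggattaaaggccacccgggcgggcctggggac
The Slc2a1 match begins 36 bases before the start, and the first bases of the Slc5a1 and Slc9a3 matches are 143 and 87 bases before it. The window of Slc2a2, the basolateral carrier that fell, held none of the 4 motifs, and the windows of Slc4a4 and Atp1b1 held none either. That says only that these letters are absent there.

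Ratios within a library do not depend on the scaling between libraries, so the balance between paired carriers was compared as ratios of deposited RPKM, with two-sided exact permutation tests within sex (smallest possible p = 0.00143) and p-values adjusted over 12 comparisons. Slc5a2 exceeded Slc5a1 by a median of 33.4-fold in PT of contralateral kidneys, 5.77-fold at day 5 and 9.93-fold at day 10. The log2 ratio of Slc5a1 to Slc5a2 was higher by 2.70 at day 5 and 2.21 at day 10 (exact permutation p = 0.00143 for both, adjusted p = 0.00214). In Total, Slc5a2 exceeded Slc5a1 by 12.5-fold, 2.46-fold and 1.53-fold in the same order, with log2 differences of 2.65 and 2.63 (exact permutation adjusted p = 0.00214). The obstructed and contralateral libraries did not overlap, except in PT at day 10. Slc2a2 exceeded Slc2a1 by 16.9-fold in PT of contralateral kidneys, 5.89-fold at day 5 and 6.20-fold at day 10. The log2 ratio of Slc2a1 to Slc2a2 was higher by 1.68 and 1.58 in PT, and by 1.74 and 1.71 in Total, where the medians were 5.19-fold, 1.5-fold and 1.67-fold (exact permutation adjusted p = 0.00214 for each of the 4). These 4 comparisons of basolateral carriers were without overlap, and in Total at day 5 the highest library held more Slc2a1 than Slc2a2, at a ratio of 1.34.

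**Figure D2:**
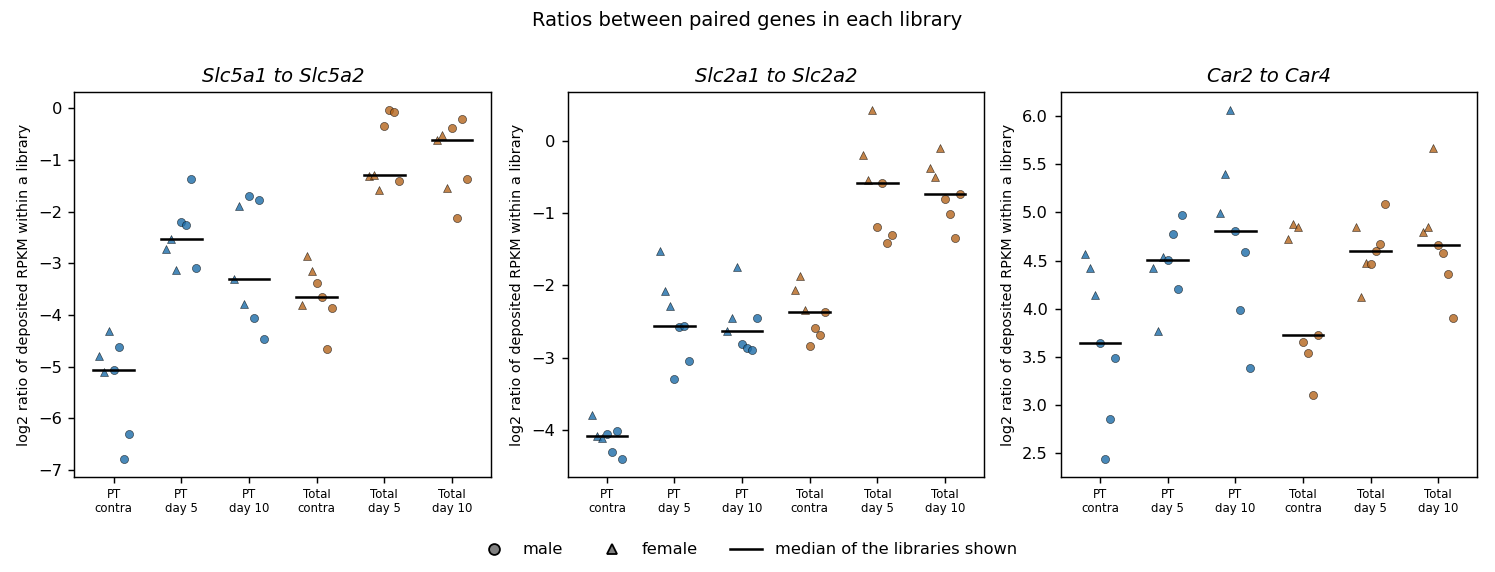
Log2 ratio of deposited RPKM between paired genes in each library, by fraction and kidney state; circles are male, triangles female libraries and lines medians of 7. The ratios of Slc5a1 to Slc5a2 and of Slc2a1 to Slc2a2 sit higher in obstructed than in contralateral kidneys of both fractions, by 1.58 to 2.70, and the ratio of Car2 to Car4 overlaps between states.

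Of the acid-base genes, Slc4a4, the basolateral sodium-bicarbonate cotransporter, fell in all 4 comparisons with contralateral kidneys. Its PT level was 90.7, 112 and 154 RPKM in contralateral kidneys, 36.3, 45.1 and 47.8 at day 5, and 31.5, 39.4 and 54.1 at day 10. No obstructed library reached the contralateral range. The PT changes were -1.50 ± 0.14 and -1.63 ± 0.14 (edgeR adjusted p = 1.46e-08 and 4.03e-09). In Total the level went from 70.1, 103 and 118 RPKM to 19.5, 24.6 and 33.4 and to 12.9, 18.8 and 25.5. The Total changes were -1.98 ± 0.17 and -2.39 ± 0.17 (edgeR adjusted p = 6.08e-10 and 2.56e-11), 3.95-fold and 5.24-fold, without overlap. None of the settings tried ended the call of Slc4a4 or of Slc5a2 in these 4 comparisons.

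Slc9a3, the apical sodium-proton exchanger, rests on few counts, 12 to 176 per library. In PT its level was 1.41, 1.78 and 4.86 RPKM in contralateral kidneys, 0.310, 0.465 and 1.23 at day 5, and 0.345, 0.752 and 1.13 at day 10. The groups did not overlap, although the contralateral libraries fell into 5 between 1.41 and 2.18 RPKM and 2, one of each sex, at 4.46 and 4.86. The PT changes were -2.07 ± 0.38 and -1.84 ± 0.37 (edgeR adjusted p = 9.76e-05 and 2.51e-04). In Total its level was 0.798, 0.994 and 1.5 RPKM, then 0.266, 0.457 and 0.878, then 0.236, 0.436 and 0.746, overlapping with contralateral kidneys at day 5 and not at day 10. The Total changes were -1.27 ± 0.32 and -1.22 ± 0.32 (edgeR adjusted p = 0.00157 and 0.00212). With limma on log2(RPKM + 1), a scale that understates changes of low genes, the values were -0.79 and -0.71 in PT and -0.34 and -0.36 in Total, all short of 2-fold. The Total values were -0.82 and -0.84 on library size alone, and with Lars2 as a covariate the Total value at day 10 was -0.94. The tables imply a length of 2.49 kb for this gene, against 5504 exon bases in GENCODE M21, and 2.75 kb against 5755 bases for Slc2a2, so their RPKM relative to other genes depends on the gene model.

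Car4, the carbonic anhydrase anchored to the membrane, fell in Total at both days and in PT at day 10. The PT libraries held 63.3, 109 and 164 RPKM in contralateral kidneys, 34.8, 45.2 and 79.3 at day 5, and 23.7, 48.1 and 102 at day 10, with overlap at both days. The PT changes were -0.93 ± 0.20 and -1.01 ± 0.20 (edgeR adjusted p = 4.58e-04 and 1.85e-04), on either side of the 2-fold line. Leaving out 1 library at a time gave values of -1.003 to -0.85 at day 5 and of -1.19 to -0.89 at day 10, where the call was lost without any of 5 libraries. At day 5 it was called only without replicate 2 of the female day 5 libraries. Under other settings the day 10 value was -0.59 (library size alone), -0.99 (no filter) and -0.97 (filter of 5 CPM in 3 libraries). In Total its level went from 43, 76.3 and 119 RPKM to 17.2, 21.4 and 38.5 and to 11, 22.4 and 30.7, without overlap. The Total changes were -1.35 ± 0.17 and -1.58 ± 0.17 (edgeR adjusted p = 5.13e-07 and 4.1e-08), and on library size alone the day 5 value was -0.89.

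Car2, the cytosolic carbonic anhydrase, was the most abundant of the 9 in every state and fraction. In PT it ranked 46th by mean level among 28069 genes in contralateral kidneys. PT levels of this gene were 589.8, 1357 and 1811 RPKM in contralateral kidneys, 830.1, 1080.4 and 1401 at day 5, and 904, 1176 and 2118 at day 10, with broad overlap. The PT changes were -0.28 ± 0.18 and -0.01 ± 0.18 (edgeR adjusted p = 0.202 and 0.956), and on library size alone 0.19 and 0.46. In Total the level went from 887, 1051 and 1271 RPKM to 455, 585 and 789 and to 438, 471 and 801, without overlap. The Total changes were -0.91 ± 0.14 at day 5, short of 2-fold, and -1.03 ± 0.14 at day 10 (edgeR adjusted p = 6.31e-06 and 9.79e-07). The day 10 value was -0.94 without replicate 1 of the female day 10 libraries, -0.68 on library size alone and -0.98 with the filter of 5 CPM in 3 libraries, each short of 2-fold. Intercalated cell markers summed to medians of 7.33, 5.96 and 6.26 RPKM in PT and 227, 118 and 95.2 in Total across the 3 states. Erythrocyte markers summed to 1.59, 3.71 and 6.52 RPKM in PT, with 3 of 4 tested called higher at day 10. In Total they summed to 33.6, 69.1 and 111 RPKM, and none tested was called at either day. The Total sums overlapped, from 12.4 to 132 RPKM in contralateral and 21.9 to 157 in day 10 kidneys. The part of either in the Car2 result was not tested.

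Car2 exceeded Car4 by a median of 12.5-fold in PT of contralateral kidneys, 22.7-fold at day 5 and 28.1-fold at day 10. The log2 ratio was higher by 0.69 at day 5 (exact permutation adjusted p = 0.0452) and by 1.10 at day 10 (exact permutation adjusted p = 0.00571), with overlap between the groups at both days. The value at day 5 averages sexes that differed. Male PT libraries had log2 ratios of 4.20 to 4.97 at day 5, against 2.435 to 3.64 in contralateral kidneys. Female ones had 3.77 to 4.53 against 4.14 to 4.57, without a rise. In Total the medians were 13.2, 24.2 and 25.4-fold, with differences of 0.43, which did not pass the test, and 0.58 (exact permutation adjusted p = 0.117 and 0.0103). The male Total log2 ratios at day 5 were 4.47 to 5.085, against 3.10 to 3.72 in contralateral kidneys. The female ones were 4.12 to 4.85 against 4.73 to 4.88. A difference of these ratios between the sexes was not tested. The PT result at day 5 was near the threshold: the call was lost without any of 12 of the 14 libraries, with values of 0.58 to 0.78 and exact permutation adjusted p of 0.0514 to 0.092. With all libraries at equal weight the Total value at day 10 was 0.62 (exact permutation adjusted p = 0.104).

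Atp1b1, the beta subunit that the sodium pump needs to reach the membrane, was second in level among the 9. Its PT level was 221, 292 and 474 RPKM in contralateral kidneys, 121, 195 and 272 at day 5, and 106, 148 and 198 at day 10. The day 10 libraries lay below all contralateral libraries and the day 5 libraries did not. The PT changes were -0.82 ± 0.17 at day 5, short of 2-fold, and -1.09 ± 0.17 at day 10 (edgeR adjusted p = 4.13e-04 and 1.87e-05). In Total the level went from 293, 368 and 655 RPKM to 115, 220.2 and 269 and to 113, 161 and 199, without overlap. The Total changes were -1.25 ± 0.15 and -1.42 ± 0.15 (edgeR adjusted p = 2.24e-07 and 2.49e-08). Scaled by library size alone, the day 10 value in PT was -0.68 and the day 5 value in Total -0.79, both short of 2-fold. Without replicate 3 of the female contralateral libraries the day 10 value in PT was -0.98. Loop of Henle and distal tubule markers summed to medians of 49.2, 22.3 and 28.8 RPKM in PT and 1001, 344 and 339 in Total, and their part in the Atp1b1 result was not tested. Its exons share 575 bases (18.7%) with those of Nme7 on the other strand.

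**Figure D3:**
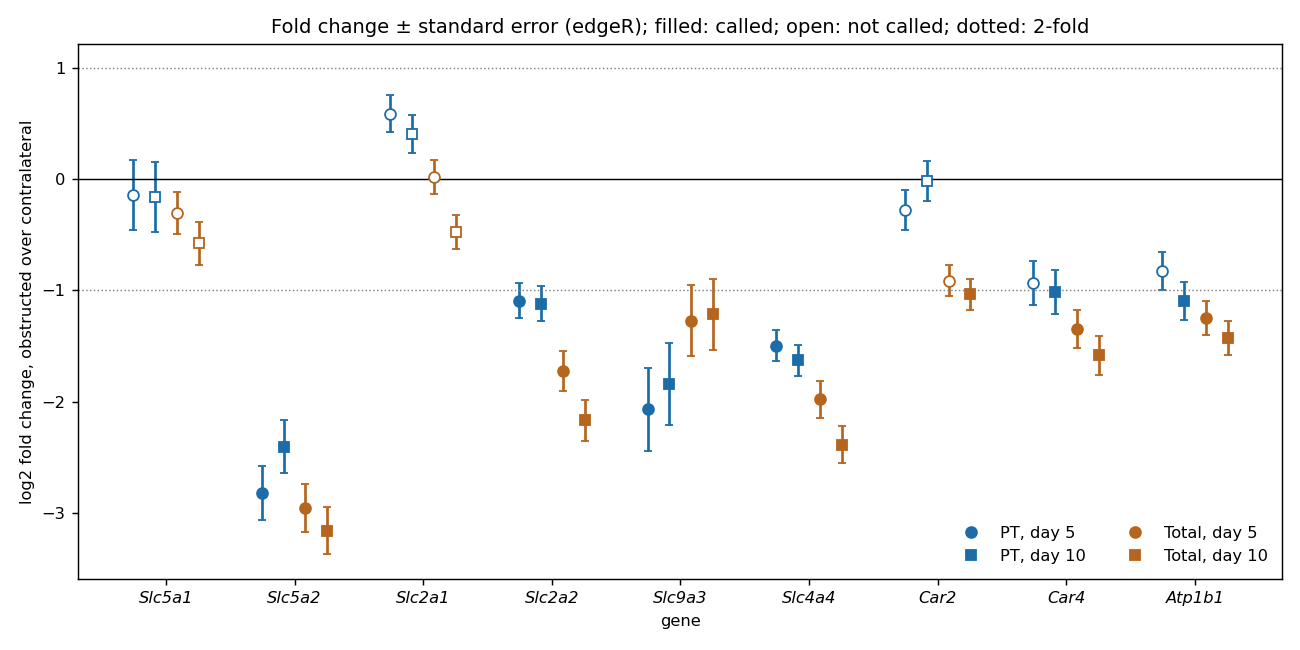
Log2 fold change ± standard error of the 9 genes in obstructed over contralateral kidneys (PT blue, Total brown; circles day 5, squares day 10), with filled symbols for called genes and dotted lines at 2-fold. Slc5a2 stands lowest at -2.41 to -3.16, Slc5a1 and Slc2a1 lie between -0.58 and 0.59 and are open throughout, and Car2 is filled only in Total at day 10.

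Counted by overlap, 4 of the 9 genes had no shared range between the 7 obstructed and 7 contralateral PT libraries at day 5 (Slc5a2, Slc2a2, Slc9a3 and Slc4a4) and 5 at day 10, when Atp1b1 was added. Of all genes tested, 25.5% and 22.3% were without overlap. In Total the numbers were 6 and 7, against 28.6% and 29.7% of all genes.

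The order of levels changed with the state. By mean RPKM in PT, contralateral kidneys ranked Car2, Atp1b1, Slc5a2, Slc4a4, Car4, Slc2a2, Slc5a1, Slc2a1 and Slc9a3. At day 5, Slc5a2 stood sixth at a mean of 23.6 RPKM, below Car4, Slc4a4 and Slc2a2, and Slc2a1 stood above Slc5a1. The day 5 range of Slc5a2 overlapped those of Slc2a2 and, narrowly, Car4, and lay below that of Slc4a4. Those of Slc2a1 and Slc5a1 overlapped as well. Among neighbours in the contralateral order, the ranges of Slc5a2, Slc4a4 and Car4 overlapped, as did those of Car4 and Slc2a2 and those of Slc5a1, Slc2a1 and Slc9a3. Over the 21 PT libraries the log2 levels of Slc2a2 and Slc4a4 correlated at r = 0.936, those of Slc2a2 and Atp1b1 at 0.897 and those of Slc4a4 and Atp1b1 at 0.889. Slc2a1 had negative correlations with Slc5a2 (-0.537) and Car4 (-0.531) in PT and positive ones in Total (0.361 and 0.174). These values pool the 3 states and are given without a test.

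The difference between fractions, PT over Total on the log2 scale, was tested in a fit to all libraries. In contralateral kidneys only Slc9a3 of the 9 was called higher in PT than in Total, by 1.20 ± 0.34 (edgeR adjusted p = 0.00433), where 24.1% of 17110 genes were called and 1.16% were called higher in PT. Without replicate 2 of the male or replicate 3 of the female contralateral PT libraries, its value was 0.88 to 0.93 and not called. The call was also lost on library size alone (0.91) and with limma on log2(RPKM + 1) (0.46), where Slc2a1 was called lower in PT instead (-1.23 and -1.001), as it was without replicate 1 of the female contralateral PT libraries (-1.03). Slc5a2 stood just short of the fold at 0.99 ± 0.22 (edgeR adjusted p = 2.92e-04) and was called with RLE factors (1.03), no filter (1.11), DESeq2 (1.03) and the compared groups alone (1.02), and in 26 of the 42 fits that left out 1 library. The other values were 0.79 ± 0.17 for Slc2a2, 0.62 ± 0.19 for Car4, 0.32 ± 0.15 for Slc4a4, 0.24 ± 0.15 for Car2, -0.41 ± 0.16 for Atp1b1, -0.60 ± 0.28 for Slc5a1 and -0.92 ± 0.17 for Slc2a1. At day 5, 3 members were higher in PT (Slc2a2 by 1.39 ± 0.18, Slc5a2 by 1.10 ± 0.22 and Car4 by 1.01 ± 0.19), with edgeR adjusted p of at most 6.81e-05, against 4.02% of genes called higher and 27.8% called. At day 10, 5 members were higher in PT: Slc2a2 by 1.87 ± 0.18, Slc5a2 by 1.77 ± 0.22, Car2 by 1.30 ± 0.16, Car4 by 1.23 ± 0.19 and Slc4a4 by 1.11 ± 0.15. The adjusted p by edgeR was at most 9.32e-07 for these 5, where 30.1% of genes were called and 7.07% called higher. No difference was called for the other 4. The call of Car4 at day 5 was lost without replicate 3 of the male day 10 Total libraries or replicate 1 of the male day 5 PT libraries (0.995 to 0.9999), and with RLE factors, DESeq2 or the compared groups alone (0.97 each). That of Slc4a4 at day 10 was lost without replicate 1 of the female day 10 PT libraries (0.99). On library size alone Slc5a2 (0.84) and Car4 (0.75) at day 5 and Slc4a4 (0.82) and Car4 (0.94) at day 10 were short of 2-fold. The 3 comparisons of the fractions share a fit and no libraries.

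Whether the log2 change with obstruction differed between PT and Total was tested as an interaction. At day 10 it was called for Slc2a2, at 1.08 ± 0.25 (edgeR adjusted p = 0.00296), and for Car2, at 1.06 ± 0.22 (adjusted p = 9.39e-04), so that the change in Total lay below that in PT for both. The median of all genes in this interaction was 0.17, and it was called for 5.76% of genes, and for 4.68% in that direction. Those of Slc2a1 (0.91 ± 0.23, edgeR adjusted p = 0.00821) and Slc4a4 (0.79 ± 0.21, adjusted p = 0.0109) had the same sign and were short of 2-fold. With RLE factors, no low-count filter or DESeq2 the values of Slc2a2 (0.93 to 0.96) and Car2 (0.91 to 0.92) were under 2-fold as well, with adjusted p of at most 0.0117. Without replicate 3 of the male day 10 Total libraries they were 0.92 for Slc2a2 and 0.83 for Car2, and without either of 2 contralateral PT libraries Car2 was 0.95 and 0.998. Slc2a1 and Slc4a4 were called without replicate 1 of the female day 10 Total libraries (1.11 and 1.02), and Slc2a1 also without either of 2 others (1.02 and 1.03). At day 5 no member was called in the interaction by edgeR, where 4.27% of genes were called, and the largest were Car2 and Slc2a2 at 0.60 (adjusted p = 0.118 and 0.196). DESeq2 and limma-voom called none there either, and 4 members had an unadjusted p under 0.05. Macrophage markers summed to medians of 41.5, 622 and 912 RPKM in Total and 4.43, 30.9 and 50.2 in PT across the 3 states, and their part in the difference between fractions was not tested.

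The sexes were compared within each state. Car4 was lower in females in Total of contralateral kidneys, at 44.6, 43 and 44 RPKM in the 3 female libraries against 81.3, 76.3, 119 and 79.6 in the 4 male libraries. The log2 difference was -1.02 ± 0.25 (edgeR adjusted p = 0.0159, n = 3 and 4), the only member called among 2.76% of genes, and 1.6% were called lower in females. It was lost without male replicate 3 (119 RPKM) or any of the 3 females, with values of -0.84 to -1.03 and edgeR adjusted p of 0.0595 to 0.0810. Under the filter of 5 CPM in 3 libraries, limma-voom and library size alone it was just short of 2-fold (-0.99, -0.997 and -0.91). In PT the same contrast was -0.84 ± 0.28 (edgeR adjusted p = 0.107), with 63.3, 84.7 and 69.4 RPKM in females and 109, 109, 164 and 129 in males. At day 5 the order turned. The female Total libraries held 27.3, 38.5 and 30.8 RPKM and the male ones 20.9, 18.8, 21.4 and 17.2. This difference at day 5 was itself not called. The interaction of sex with day 5 in Total was 1.75 ± 0.34 for Car4 (edgeR adjusted p = 0.0127), among 0.59% of genes called (0.34% in this direction and 0.25% in the other), and it was lost without replicate 2 of the female day 5 libraries (1.61). In PT the interaction was 1.56 ± 0.39 (edgeR adjusted p = 0.0778). It was called in PT with DESeq2 (1.54, adjusted p = 0.0187), in a fit of the compared groups alone (1.54, adjusted p = 0.0141) and without the libraries of high Lars2 (1.56, adjusted p = 0.0216). At day 10 the interactions were 0.65 ± 0.34 in Total and 0.11 ± 0.39 in PT (edgeR adjusted p = 0.829 and 1.0). In Total at day 10 all 3 female libraries were of high Lars2.

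Atp1b1 moved in the opposite sense. In Total the female libraries went from 452, 368 and 655 RPKM in contralateral kidneys to 136, 143 and 115 at day 5, and the male ones from 368, 452, 329 and 293 to 244, 267, 269 and 220.2. The sexes overlapped in contralateral kidneys, and the difference between them at day 5 was itself not called. The interaction of sex with day 5 in Total was -1.36 ± 0.30 (edgeR adjusted p = 0.0327), and it was lost when any of 8 libraries was left out (-1.10 to -1.43). In PT it was -0.96 ± 0.34 (edgeR adjusted p = 0.336). At day 10 the Total libraries of the sexes overlapped again, at 199, 165 and 134 RPKM in females and 161, 172, 113 and 147 in males.

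Between the sexes, no member was called by edgeR in PT in any state (4.13%, 0.851% and 2.22% of genes in contralateral, day 5 and day 10 kidneys), nor in Total at day 5 or day 10 (0.429% and 1.13%). The interactions with day 10 in both fractions and with day 5 in PT had no called member either (0.208% of genes in PT and 0.185% in Total at day 10, and 0.502% in PT at day 5). At an unadjusted p under 0.05 there were 3, 3 and 2 members between the sexes in PT and 5 and 1 in Total at day 5 and day 10, and for the interactions 4 in PT at day 5, 0 in PT at day 10 and 3 in Total at day 10. DESeq2 called none of these except Car4 in the interaction with day 5 in PT, and limma-voom called none. Car2 in PT at day 10 was 1314, 2118 and 1584 RPKM in females and 904 to 1176 in males. That difference did not pass the test (0.62 ± 0.25, edgeR adjusted p = 0.284).

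**Figure D4:**
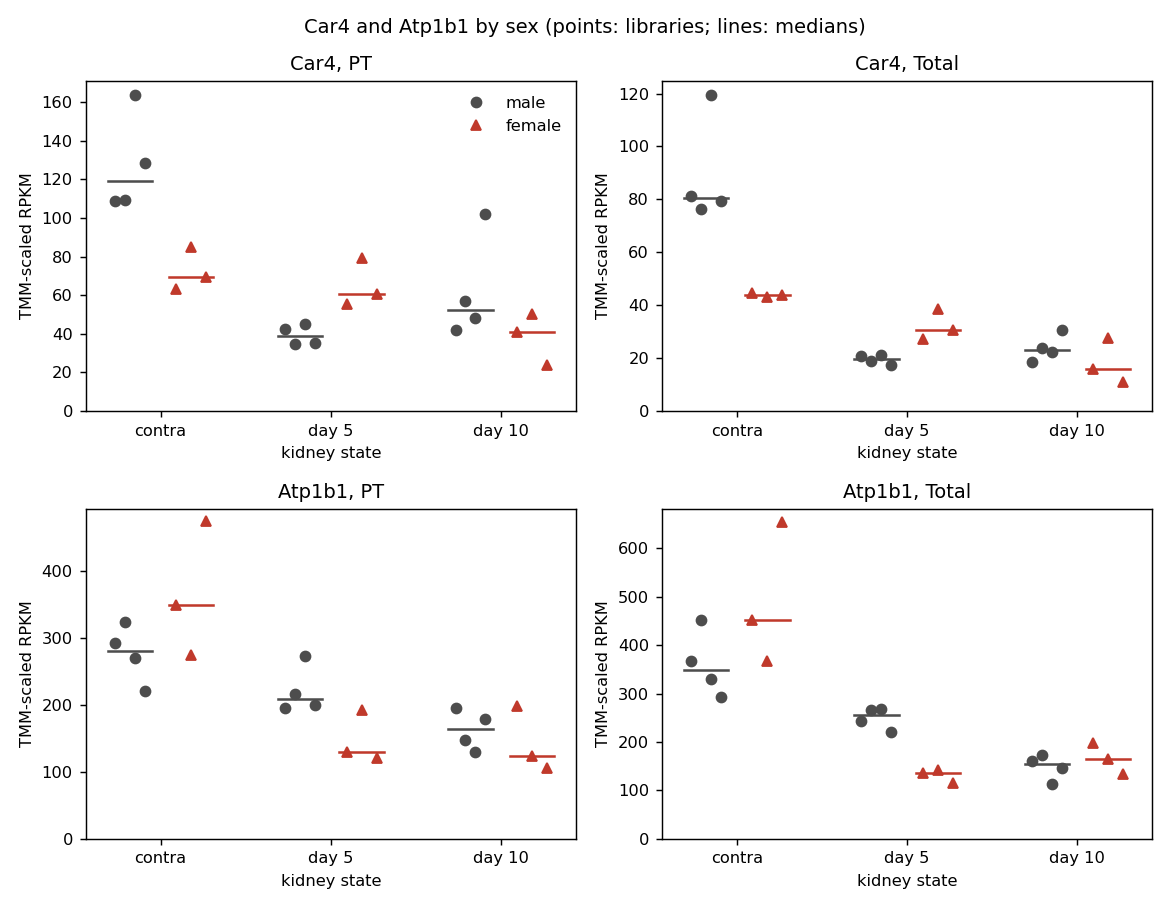
TMM-scaled RPKM of Car4 and Atp1b1 in each library by kidney state in PT (left) and Total (right); grey circles are the 4 male and red triangles the 3 female libraries, and lines are medians. The Car4 points lie higher in males in contralateral kidneys, a difference called in Total only. At day 5 they lie higher in females, which was called in neither fraction. Atp1b1 in Total at day 5 is 115 to 143 in females and 220.2 to 269 in males, also not called.

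The genes whose log2 level followed each member most closely over the 21 PT libraries were named by a fixed rule, the 3 highest Pearson correlations among genes of at least 5 counts per M counts. For Slc5a2 they were Lrpap1 (r = 0.981), the phosphate carrier Slc34a3 (0.978) and the gluconeogenic enzyme gene Fbp1 (0.973). For Slc4a4 they were the lactate carrier Slc5a12 (0.975), the amino acid carrier Slc6a19 (0.972) and Clcn6 (0.968). Slc2a2 followed Slc6a19 (0.931), Man2b1 (0.926) and Mertk (0.924), and Atp1b1 followed Vegfa (0.95), March6 (0.944) and Ttc7b (0.942). Slc9a3 had Atp5e (0.939), 0610009O20Rik (0.933) and Gm2a (0.923), and Car4 had the phosphate carrier family gene Slc17a1 (0.908), Gas2 (0.893) and Cox19 (0.891). The closest genes of the others were Slc35a5 (0.867), Cldn12 (0.858) and Itgb8 (0.825) for Slc5a1, Klhl22 (0.863), Nicn1 (0.775) and Supt16 (0.765) for Car2, and Fam81a (0.859), Twsg1 (0.848) and Kdelc1 (0.835) for Slc2a1. All points share the 3 states, so the values describe the pattern over these libraries.

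Related genes were followed in 4 lists beside the members. The counts of each list stand against a high background. Of all genes tested in PT, 30.6% were called at day 5 and 31.7% at day 10, with 12.4% and 12% lower. In Total 32.5% and 34.6% were called, with 13.3% and 13.8% lower. Of 15 other hexose and related carriers, 11 were tested in PT, and 8 were called lower and none higher at each day, with list medians of -1.57 and -1.40 against 0.05 and 0.05 for all genes. Slc5a12, which carries lactate with sodium, went from 89.4, 158 and 230 RPKM in PT of contralateral kidneys (lowest, median, highest) to 19.4, 33.5 and 39.8 at day 5 (-2.37 ± 0.19) and 21, 27.9 and 44.9 at day 10 (-2.38 ± 0.19), and it is also 1 of the 5 early-segment markers. Scaled by library size alone, 6 and 5 were called lower and none higher, with medians of -1.12 and -0.93. The fructose carrier Slc2a5 fell as well (-1.97 and -2.43 at the 2 days), as did Slc2a12 (-1.99 and -2.07), the inositol carrier Slc5a11 (-1.91 and -1.49) and Slc5a9 (-1.33 and -1.70). In Total these 5 also fell, with values of -1.59 to -3.00 at day 5 and -2.04 to -3.35 at day 10. There, 9 of 15 tested fell at day 5 and 10 at day 10, and 3 and 4 rose.

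Of 20 sodium-proton exchange and bicarbonate genes, 15 were tested in PT, with 5 lower and 3 higher at each day and medians of -0.01 and -0.37, which were 0.46 and 0.06 on library size alone (4 lower and 4 higher at each day). The anion exchanger Slc26a6 fell (-1.94 and -1.63 at the 2 days), as did the exchanger Slc9a2 (-1.65 and -1.60), the scaffold gene Pdzk1 (-1.49 and -1.27) and the sulfate carrier Slc26a1 (-1.44 and -1.53). Slc4a11, of the same family as Slc4a4, rose from 0 to 0.251 RPKM in PT of contralateral kidneys to 0.281 to 3.41 at day 5 (3.65 ± 0.46) and 1.19 to 8.53 at day 10 (5.10 ± 0.47). In Total these 4 fell too, with values of -1.35 to -2.01 at day 5 and -1.42 to -2.30 at day 10, and Slc4a11 rose by 3.22 and 3.87. In Total 6 of 19 tested fell and 3 rose at day 5, and 8 fell and 2 rose at day 10.

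Of 14 other carbonic anhydrases, 9 were tested in PT, with 5 lower and 2 higher at day 5, 3 lower and 1 higher at day 10, and medians of -1.06 and -0.75 (-0.58 and -0.31 on library size alone, with 2 lower and 2 higher at day 5 and 3 lower and 1 higher at day 10). The membrane-bound Car14 had the largest change, from 38.4, 51.1 and 87.7 RPKM in PT of contralateral kidneys to 2.40, 3.54 and 4.02 at day 5 (-4.07 ± 0.33) and 2.80, 4.42 and 14.6 at day 10 (-3.46 ± 0.32). Car12, also in the membrane, fell at both days (-1.97 and -2.01), and Car3 (-1.67) and Car7 (-1.06) fell at day 5. The cytosolic Car13 rose from 1.67, 2.61 and 8.08 RPKM to 11.1, 12.8 and 21.3 at day 5 (2.20 ± 0.28) and 8.93, 13.7 and 19.8 at day 10 (2.12 ± 0.28), and Car11 rose by 1.33 ± 0.55 at day 5. In Total Car14 fell (-4.39 and -4.31) and Car13 rose (1.54 and 1.69), and 4 of 11 tested fell and 2 rose at each day.

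Of 12 other sodium pump subunit genes, 9 were tested in PT, with 1 lower and 4 higher at day 5, 2 lower and 5 higher at day 10, and medians of 1.03 and 1.11. On library size alone 5 were higher at each day and none lower, so the calls of Fxyd2 in PT were lost there. None of the genes called in these 4 lists changed sign on that scale. Fxyd2, the regulatory subunit of the kidney pump, fell from 6990.5, 11331 and 13892 RPKM in PT to 4240.4, 5092 and 5905 at day 5 (-1.15 ± 0.20) and to 3473, 4642 and 10161 at day 10 (-1.17 ± 0.20). Fxyd5 rose from at most 0.264 RPKM to between 0.873 and 1.5 at day 5 (2.64 ± 0.26) and between 1.03 and 2.14 at day 10 (3.08 ± 0.26), and Fxyd6 rose by 1.94 and 1.71 and Fxyd1 by 1.11 at day 10. In Total, Fxyd5 rose by 3.10 and 3.40, Fxyd6 by 2.65 and 2.44 and Fxyd1 by 2.05 and 2.43, and Fxyd2 fell (-1.22 and -1.33). Fxyd1, Fxyd5 and Fxyd6 were higher in Total than in PT in level, and markers of macrophages and fibroblasts, which moved with them, summed in PT to 30.9 and 5.20 RPKM at day 5. Their part in the rises was not tested.

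**Figure D5:**
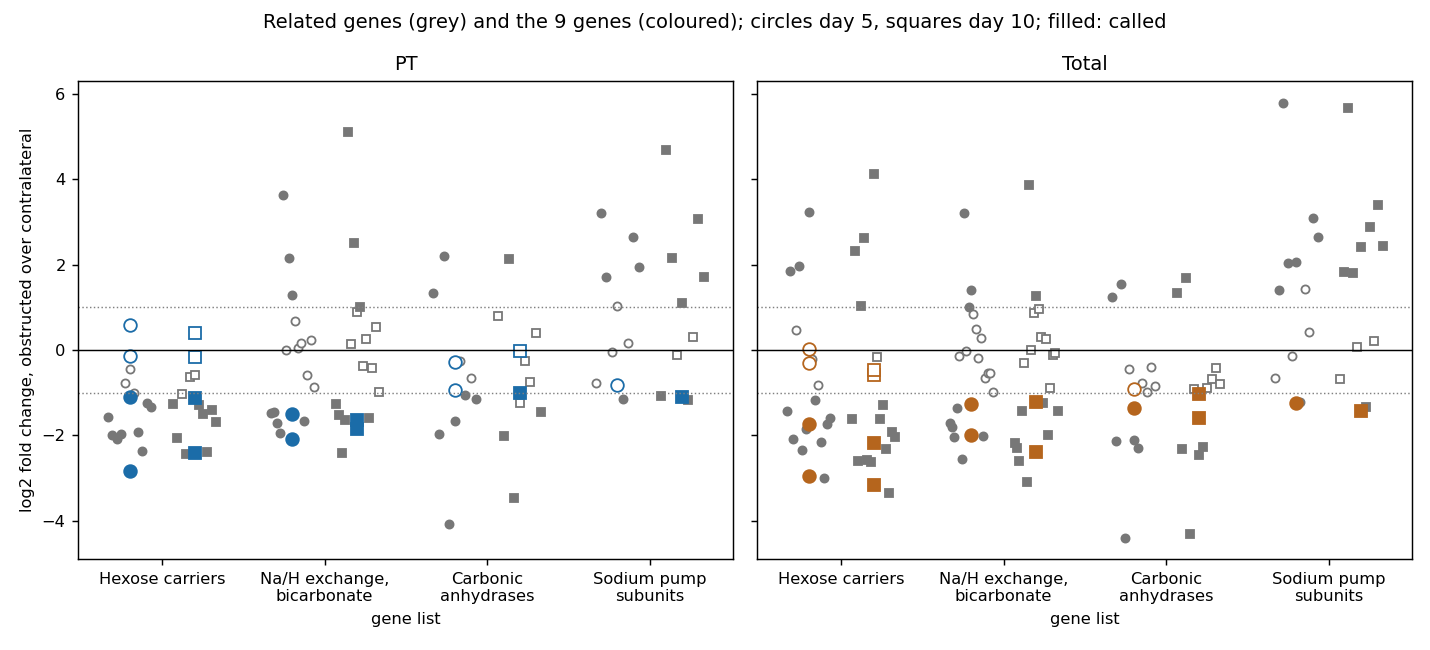
Log2 fold changes of the tested genes of the 4 related lists (grey) and of the 9 genes (blue in PT, brown in Total), with circles for day 5, squares for day 10, filled symbols for called genes and dotted lines at 2-fold. Every called hexose carrier in PT lies below 0, and called genes of the other lists lie on both sides.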

How the data were processed

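RNA-seq was analysed from 42 libraries of mouse renal cortex. The deposited tables hold raw read counts per gene symbol. Per the submitters' processing notes, which name STAR 2.0.4b, Subread and featureCounts 1.4.5 with no role or order, reads were aligned and counted. The genome build, annotation and strand setting of the counting are not given in the sources used here. The authors also deposited RPKM for the same 40701 symbols, of which 12632 were at 0 in every library. Counts per M over RPKM gave a single length per gene within 0.000429 for 28069 genes. Libraries held 9.31 to 43.6 M counts, which limits the precision of low genes such as Slc9a3. No 2 libraries of a group were alike within sampling noise (lowest chi-square per degree of freedom 17.5). Some groups still fell into closer pairs. In male day 5 Total libraries, replicates 1 and 2 stood at 20.6 and replicates 3 and 4 at 17.5, against 94.9 to 102 across the pairs. Male contralateral Total libraries, at 31.55 to 52.9, did not split so clearly. The labels do not say what sets such pairs apart, and p-values treat all libraries of a group as separate. All columns were mapped to a sample.

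Counts were tested with edgeR 4.0.16 in R 4.3.3 (filterByExpr, TMM, robust quasi-likelihood fit) in the 21 PT, the 21 Total or all 42 libraries, with a mean per fraction, state and sex. The 21 comparisons used an adjusted p of 0.05 and a 2-fold change. The script was tested on simulated data. Ratios of deposited RPKM were compared by two-sided exact permutation within sex. Replicate numbers paired the libraries of PT and Total in contralateral kidneys (r = 0.288 to 0.439) and at day 10 (0.193 to 0.677), and of Total between contralateral and day 10 kidneys (0.153 to 0.357). The pairing comes from the correlation of same-numbered libraries and not from a label.

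All 9 genes are named whatever their result. Of each list of related genes, up to 4 called each way with the largest change and at least 1 RPKM in a group were named from PT, and the genes most like each member by correlation. A gene that this rule takes is not reported here. The members, the 4 related lists, the 10 marker lists and the tests were chosen with earlier results of these data known. The alternatives were DESeq2 1.42.0, limma-voom (limma 3.58.1), RLE factors, library size alone, a stricter filter (at least 5 CPM in 3 libraries) or none, limma on log2(RPKM + 1) with a mean of at least 0.5 RPKM, only the compared groups, a replicate block, no minimum fold, Lars2 as a covariate and each library left out, and for ratios a pseudocount of 1 and equal weights. Leaving out the 5 PT libraries of high Lars2 was chosen after seeing the data. Promoter windows are RefSeq's (GRCm38.p6), and exon overlaps are from GENCODE M21, matched by symbol. That build was not checked against the one used in the counting.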

Additional observations from a re-analysis of the deposited data

Results flagged for a closer look

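In 4 of 54 groups of 4 male libraries of the 9 genes, 1 library stood apart from the other 3 by Dixon's test, and chance gives about 1 in 20 groups. Car2 was 573 RPKM in replicate 2 of the male day 10 Total libraries, against 460 to 471 in the others. Car4 was 119 RPKM in replicate 3 of the male contralateral Total libraries, against 76.3 to 81.3. Its difference between the sexes was not called without this library, nor without any of the 3 female ones. Slc2a1 was 7.8 RPKM in replicate 2 of the male contralateral Total libraries, against 5.25 to 5.56. Slc9a3 was 1.23 RPKM in replicate 2 of the male day 5 PT libraries, against 0.31 to 0.465.

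Effects that differed between groups by a test of the difference were the interactions of fraction with day 10 for Slc2a2 (1.08, edgeR adjusted p = 0.00296) and Car2 (1.06, edgeR adjusted p = 9.39e-04), and those of sex with day 5 in Total for Car4 (1.75, edgeR adjusted p = 0.0127) and Atp1b1 (-1.36, edgeR adjusted p = 0.0327). For Atp1b1 the call was lost without any of 8 libraries, for Car4 without 1, for Slc2a2 without 1 and for Car2 without 3.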

How the results depend on the processing

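Numbers of the 9 genes called are compared with those in the text. Without a minimum fold, 7 were called in PT at day 5, 6 and 5 between the fractions in contralateral and day 5 kidneys, and 4 in the interaction of fraction with day 10. Scaled by library size alone, 3 were called in PT at day 10, 3 in Total at day 5, 1 and 3 between the fractions at day 5 and day 10, and between the sexes in Total 0 in contralateral kidneys and 1 at day 5. With limma on log2(RPKM + 1), 2 were called in PT at each day, 3 in Total at day 5, 1 and 3 between the fractions at day 5 and day 10, and between the sexes in Total 0 and 1 in contralateral and day 5 kidneys. Between the fractions in contralateral kidneys 2 were called with RLE factors, no filter, DESeq2 or the compared groups alone, and 0 with the filter of 5 CPM, which leaves out Slc9a3. In the interaction of fraction with day 10, 0 were called with RLE factors, no filter or DESeq2. Between the sexes in Total of contralateral kidneys 0 were called with that filter or limma-voom. In the interaction of sex with day 5 in PT 1 was called with DESeq2, the compared groups alone or the PT libraries of high Lars2 left out. In Total the same interaction had 3 members called with DESeq2, against 2 with edgeR and 2 with limma-voom.

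Values near 0 changed sign. On library size alone and with limma on log2(RPKM + 1), Slc5a1 was 0.3171 and 0.2332 in PT at day 5, 0.3213 and 0.1205 at day 10, and 0.1369 and 0.09908 in Total at day 5. Under the same settings Car2 was 0.1944 and 0.2304 in PT at day 5, 0.4551 and 0.4589 at day 10, and -0.07649 and -0.114 between the fractions in contralateral kidneys. Car2 in PT at day 10 was 0.005147 with no filter, 0.03483 with the filter of 5 CPM, 0.02474 with limma-voom, 0.008647 with the replicate block and 0.1561 without the libraries of high Lars2, where Slc5a1 was 0.5112. The fit without the libraries of high Lars2 kept a single female day 10 library. Slc2a1 in Total at day 5 was -0.01514 with Lars2 as a covariate. Leaving out 1 library gave Car2 in PT at day 10 a range of -0.1242 to 0.0622, Slc2a1 in Total at day 5 -0.04965 to 0.09389, and Car4 in the interaction of sex with day 10 in PT -0.1118 to 0.4588. The cause of these changes was not tested.

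With the replicate block, the difference in the Car2 to Car4 ratio in PT at day 5 was 0.687 with an exact sign-flip adjusted p of 0.136, in place of an exact permutation adjusted p of 0.0452. For ratios the block flipped the signs of differences between same-numbered libraries. The numbers did not pair contralateral and day 5 PT libraries (r = -0.345 to 0.303), so little rests on that value. The replicate block changed no other call. No block could be fitted between the sexes, since a number does not pair a male with a female library. With all libraries at equal weight the ratio in Total at day 10 differed by 0.6212 and lost its call. Without 1 library each, members called ranged from 4 to 5 in PT at day 5, 4 to 6 at day 10, and 6 and 6 to 7 in Total. Between the fractions they ranged from 0 to 3, 2 to 4 and 4 to 5 in the 3 states, and from 0 to 4 in the interaction of fraction with day 10. Between the sexes they ranged from 0 to 1 in Total of contralateral and day 10 kidneys, where Slc2a2 was called without replicate 1 of the female day 10 libraries, and in the interaction of sex with day 5 from 0 to 1 in PT and 0 to 2 in Total. The Car2 to Car4 differences ranged from 0.5757 to 0.805 and 0.9555 to 1.236 in PT and from 0.3386 to 0.5224 and 0.4382 to 0.6578 in Total.

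Of all genes, 4572, 4733, 5453 and 5814 were called in PT and Total at day 5 and day 10 against contralateral kidneys, against 7992, 8193, 9859 and 10128 without a minimum fold, 2722, 2689, 3429 and 3603 with the filter of 5 CPM, and 2113, 2053, 2650 and 2886 with limma on log2(RPKM + 1). Between the fractions in the 3 states 4123, 4765 and 5151 were called, against 7960, 9162 and 10090, 2385, 2605 and 2888, and 1081, 1839 and 2026 under the same settings. Between day 10 and day 5, 66 were called in each fraction, against 192 and 161 with DESeq2, 31 and 40 with the filter, 27 and 28 with limma on log2(RPKM + 1), 104 in Total without a minimum fold, and in PT 107, 179 and 17 with the compared groups alone, Lars2 as a covariate or the libraries of high Lars2 left out. Between the sexes in the 3 states, 617, 127 and 332 were called in PT and 464, 72 and 190 in Total. DESeq2 called 241 and 521 in PT and 260 and 298 in Total at day 5 and day 10, and the compared groups alone gave 403, 265 and 98 in PT and 183 and 48 in Total at day 5 and day 10. With Lars2 as a covariate there were 203 in PT at day 5 and 92 in Total at day 10, without the libraries of high Lars2 36 in PT at day 10, and with limma on log2(RPKM + 1) 308 and 279 in contralateral PT and Total. The interactions of sex with day 5 and day 10 had 75 and 31 calls in PT and 99 and 31 in Total, against 191 and 100, and 305 and 78, with DESeq2. Other settings gave 7 to 67 calls at day 10 and 40 to 183 at day 5. The share of calls against contralateral kidneys that were higher was 59.6%, 62.2%, 59.1% and 60.3%, and 83.2%, 82.9%, 80.4% and 76% on library size alone.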
